A study of Homo sapiens with 8 samples.

Results

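The DNA replication and nucleotide synthesis genes described here are 49 human genes picked by symbol from a gene count table of 56303 rows. They code for the helicase that opens the DNA, the proteins that place and license it, the DNA polymerases, and the sliding clamp and its loader. Others code for the single-strand binding complex, the enzymes that finish the lagging strand and the enzymes that supply deoxynucleotides. The remaining 3, E2F1, E2F2 and UHRF1, were grouped as regulators. Each of the 49 symbols was found once in the table, and all 49 passed the filter on low counts in every comparison. The lowest count of any member in any library was 183, for ORC5.

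Transcripts carrying N6-methyladenosine (m6A) were measured in SK-N-BE(2), an established MYCN-amplified human neuroblastoma cell line. The study compared cells with a lentiviral non-targeting shRNA (sh-NC) with cells carrying an shRNA against METTL14 (shMETTL14), a subunit of the nuclear m6A methyltransferase, and asked how the loss of METTL14 alters m6A and RNA levels. Both arms were puromycin-selected stable lines of the same parent, with 2 replicates each. From each replicate, fragmented poly(A) RNA was sequenced before (input) and after pull-down with an m6A antibody (IP), which gives 8 libraries. The labels number the replicates without saying whether they were separate cultures, and in shMETTL14 whether both carry the same shRNA, so the spread between them may be technical. The time since transduction is not given in the sources used here.

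Before a cell copies its DNA, the origin recognition complex recruits CDC6 and CDT1, which load the MCM2 to MCM7 ring onto DNA, and geminin (GMNN) blocks CDT1 to prevent a repeat loading. CDC45 and the GINS complex then join the ring to form the active helicase, primase and polymerase alpha start each strand, and polymerases delta and epsilon extend it on the PCNA clamp, which the RFC complex loads. Many of these genes are transcribed in bursts at the start of S phase by E2F factors, which recognise short GC-rich motifs near the transcription start.

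The libraries held 32027379 to 47205265 counts. METTL14 (chr4:118685368-118715433, GRCh38) had input levels of 49.5 and 48.8 CPM (counts scaled for library size) in sh-NC, against 13.7 and 14.7 CPM after knockdown. Its log2 fold change was -1.79 (SE 0.0663, adjusted p = 1.28e-15, edgeR). MYCN, which defines the line, was present at 4452 and 4224 CPM in sh-NC, against 4310 and 4276 CPM in shMETTL14. The blood cell markers HBB and LYZ were at 0 in all 4 inputs, and the summed level of the 5 blood markers was 0.718 to 0.859 CPM.

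Some promoters of these genes hold E2F-type motifs, and others hold none. Windows of 30 bases around such motifs are printed for 7 matching members whose RNA values are given below. These are a member of the ring that fell and the one that rose, a licensing factor, the clamp, a polymerase subunit, a deoxynucleotide enzyme and E2F1. The choice serves as illustration, and further matches in these and other members are not printed. They were read from the RefSeq sequences of GRCh38.p14, which hold 250 bases before and 50 bases after a start site. The motifs searched, on both strands, were TTTCGCGC, TTTGGCGC, TTTCCCGC and TTTGCCGC, and matches may overlap: in MCM2 the same motif matches on both strands, and in MCM6 matches of different motifs overlap. Each window is printed 5′ to 3′ on the strand of its gene with the motif, or its reverse complement, in capitals, and its position follows.
MCM2: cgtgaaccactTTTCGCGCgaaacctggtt
MCM6, upstream: agggctttgcaTTTGGCGCgaaatcccttt
MCM6, downstream: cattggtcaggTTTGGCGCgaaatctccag
CDT1: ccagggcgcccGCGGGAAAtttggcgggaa
PCNA: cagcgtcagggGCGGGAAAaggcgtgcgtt
POLE2: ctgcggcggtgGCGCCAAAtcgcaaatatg
TYMS: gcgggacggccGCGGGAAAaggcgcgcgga
E2F1: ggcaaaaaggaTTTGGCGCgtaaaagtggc
The MCM2 window is chr3:127598402-127598431 on the plus strand. The MCM6 windows are chr2:135876577-135876606 and chr2:135876515-135876544 on the minus strand. The CDT1 window is chr16:88803743-88803772 and the TYMS window chr18:657603-657632, both on the plus strand. The PCNA window is chr20:5126663-5126692, the POLE2 window chr14:49688201-49688230 and the E2F1 window chr20:33686387-33686416, all on the minus strand.

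A promoter sequence was at hand for 43 of the 49 members, and 22 of those 43 (51.2%) held at least 1 of the motifs. Among all 27305 promoters of the same length, 908 (3.33%) held one, and among the 11587 promoters of genes tested in input, 579 (5.0%) did. The promoter windows of RRM2, MCM10 and GMNN held none of these motifs. Among the members that fell in the input comparison described next, 16 of 28 promoters (57.1%) held a motif, as did 5 of 14 promoters (35.7%) of members that did not pass the test, and the promoter of MCM6, the member that rose. These are matches of letters in a fixed window and not sites known to be bound in these cells. MCM4, MCM5, GINS4, POLD3, RPA2 and RPA3 had no entry.

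The input libraries measure RNA level, so the question of this comparison was whether replication genes change in level after METTL14 knockdown. RNA of most members was modestly lower in shMETTL14. Of the 49 members, 31 were lower, 1 was higher and 17 did not pass the test, at an adjusted p under 0.05 in edgeR over all 22245 genes tested. Among all genes tested, 12.3% were lower and 11.7% were higher. The median log2 fold change of the members was -0.26, or 0.837-fold, against 0.0024 over all genes tested, and it ranged from -0.68 for RRM2 to 0.20 for MCM6. The difference was negative for 47 members and positive for 2. On leaving out 1 replicate in turn, 9 of the 31 lower members lost their call in at least 1 case: ORC1, CDC6, RFC2, PRIM1, POLA1, POLA2, GINS2, MCM3 and TK1.

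In 44 members both shMETTL14 inputs lay below both sh-NC inputs, against 29.9% of all genes tested. In MCM6 and ORC2 both lay above, against 28.5% of all genes tested, and in ORC5, UHRF1 and E2F1 the arms overlapped. Together the 49 genes made up 0.454% and 0.455% of the sh-NC input counts, against 0.383% and 0.381% after knockdown. In bulk RNA, fewer cells in S phase and less of these RNAs per cell cannot be told apart.

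**Figure D1:**
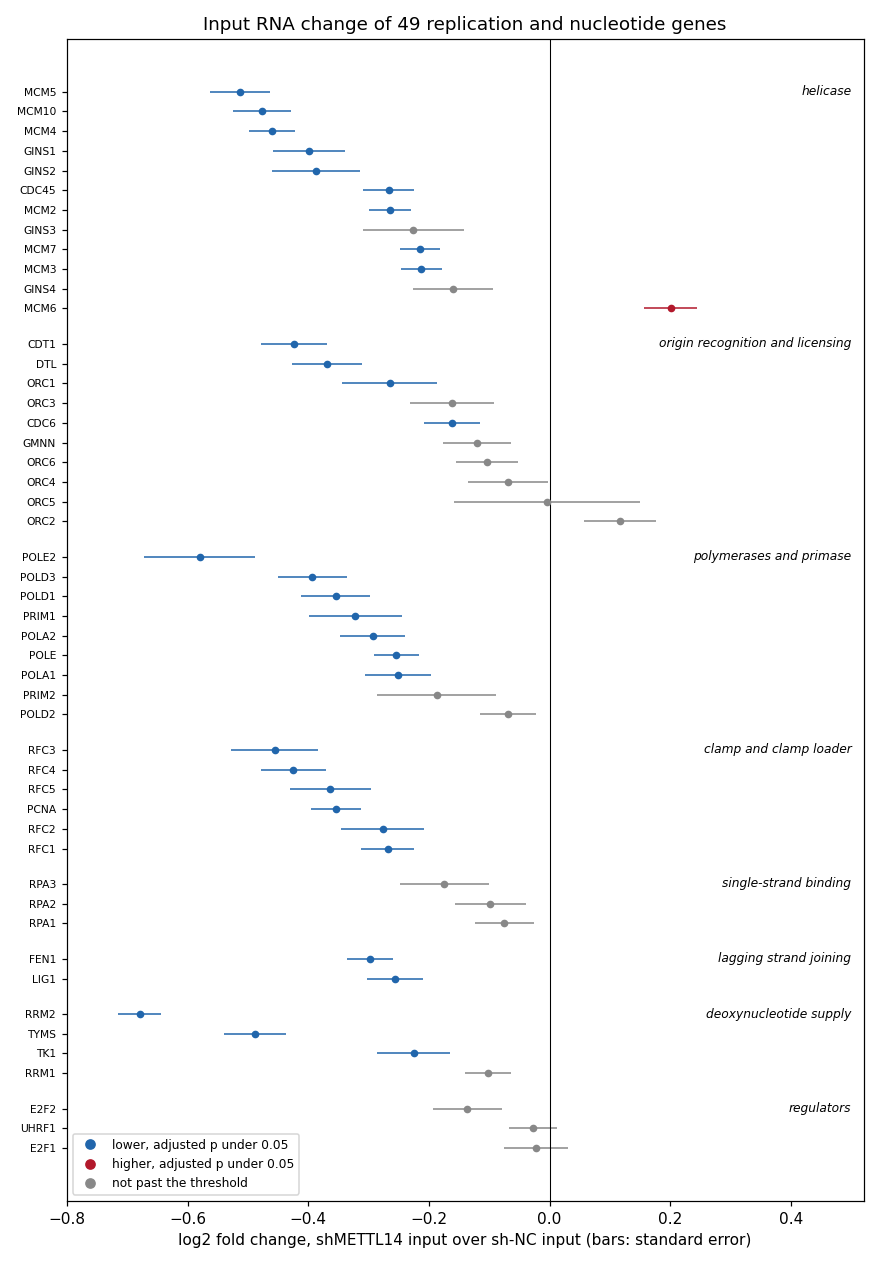
Log2 fold change of the 49 members, shMETTL14 input over sh-NC input, on the x axis, with 1 row per gene grouped by role; bars are the standard error of the edgeR fit and colours mark the call. The points run from -0.68 for RRM2 to 0.20 for MCM6, and 31 of them are marked lower.

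**Figure D2:**
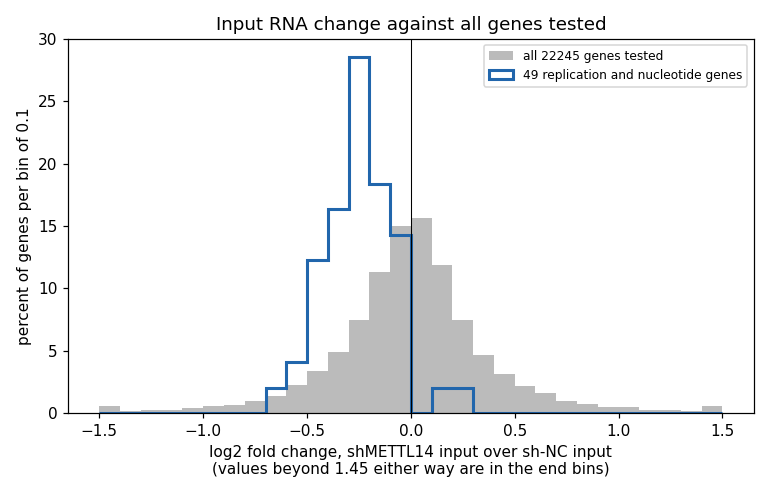
Distribution of the log2 fold change in input, shMETTL14 over sh-NC, for all 22245 genes tested and for the 49 members. The y axis is the percent of genes in each bin, with values past the axis placed in the end bins. The median lies at 0.0024 for all genes and at -0.26 for the members.

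The deoxynucleotide enzymes held the largest fall. RRM2 (chr2:10122328-10131419), the regulated small subunit of ribonucleotide reductase, which makes deoxynucleotides from ribonucleotides, measured 244.0 and 243.6 CPM in sh-NC, against 150.2 and 152.9 CPM in shMETTL14. The arms were far apart relative to the spread within each, and the log2 fold change was -0.68 (SE 0.0356, adjusted p = 6.89e-13). RRM1, the large subunit of the same enzyme, measured 203.6 and 190.8 CPM against 181.5 and 184.3 CPM. Its log2 fold change of -0.10 did not pass the test (adjusted p = 0.054), although its arms did not overlap either. TYMS (chr18:657604-673578), thymidylate synthase, measured 79.0 and 84.9 CPM in sh-NC, against 60.3 and 56.0 CPM in shMETTL14, a log2 fold change of -0.49 (SE 0.0508, adjusted p = 8.63e-08). TK1, the thymidine kinase of the salvage route, fell by 0.23 on the log2 scale (adjusted p = 0.007).

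In the helicase group, 9 of 12 members fell, 1 rose and 2 did not pass the test. For this and the role groups below, the shares over all genes tested were 12.3% lower and 11.7% higher. MCM5 (chr22:35400063-35425430) measured 94.2 and 100.0 CPM in sh-NC, against 70.9 and 64.5 CPM in shMETTL14, a log2 fold change of -0.51 (SE 0.0497, adjusted p = 2.84e-08). MCM4 measured 221.4 and 218.2 CPM against 153.6 and 164.5 CPM, a log2 fold change of -0.46 (SE 0.0384, adjusted p = 2.37e-09). MCM2 (chr3:127598223-127622436) measured 239.3 and 244.5 CPM against 198.4 and 202.5 CPM, a log2 fold change of -0.26 (SE 0.0351, adjusted p = 3.4e-06). For these subunits of the ring, every shMETTL14 value lay below every sh-NC value. MCM3 and MCM7 fell by 0.21 on the log2 scale each.

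MCM6 (chr2:135839626-135876426), a subunit of the same ring, went the other way. It measured 77.9 and 78.3 CPM in sh-NC, against 88.1 and 90.6 CPM in shMETTL14, and its log2 fold change was 0.20 (SE 0.0436, adjusted p = 0.00122). The arms did not overlap, but without shMETTL14 replicate 2 the call was lost (log2 fold change 0.18, adjusted p = 0.105). MCM6 shared no exon bases with another gene of the table, and its promoter held the pair of motif windows printed above.

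Of the proteins that turn the ring into a working helicase, MCM10, CDC45, GINS1 and GINS2 fell. MCM10 (chr10:13161554-13211104), a factor of helicase activation, measured 90.1 and 84.4 CPM in sh-NC, against 60.6 and 64.1 CPM in shMETTL14, a log2 fold change of -0.48 (SE 0.0482, adjusted p = 5.36e-08). CDC45 fell by 0.27, GINS1 by 0.40 and GINS2 by 0.39 on the log2 scale. The remaining GINS subunits did not pass the test, with log2 fold changes of -0.23 for GINS3 (adjusted p = 0.0516) and -0.16 for GINS4 (adjusted p = 0.0825).

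In origin recognition and licensing, 4 of 10 members fell and 6 did not pass the test. CDT1 (chr16:88803213-88809258), the loading factor for the MCM ring, measured 51.4 and 54.5 CPM in sh-NC, against 39.6 and 39.0 CPM in shMETTL14, a log2 fold change of -0.42 (SE 0.0545, adjusted p = 2.25e-06). Its inhibitor geminin, GMNN (chr6:24774931-24786099), measured 48.2 and 44.4 CPM against 42.8 and 42.0 CPM, a log2 fold change of -0.12 that did not pass the test (SE 0.0564, adjusted p = 0.134). DTL, part of the ubiquitin ligase that degrades CDT1 in S phase, fell by 0.37, and CDC6 fell by 0.16 on the log2 scale. ORC1, whose protein is degraded in S phase in human cells, fell by 0.27. The calls of ORC1 and CDC6 were among those lost without either shMETTL14 replicate or without sh-NC replicate 2, and that of ORC1 was also lost with DESeq2. The 5 other ORC subunits did not pass the test, with log2 fold changes from -0.16 for ORC3 to 0.12 for ORC2.

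Among polymerases and primase, 7 of 9 members fell. POLE2 (chr14:49643555-49688422), the accessory subunit of the leading strand polymerase epsilon, measured 16.1 and 15.1 CPM in sh-NC, against 10.4 and 10.3 CPM in shMETTL14, a log2 fold change of -0.58 (SE 0.092, adjusted p = 3.76e-05). The catalytic subunit POLE fell by 0.25. The delta subunits POLD3 and POLD1 fell by 0.39 and 0.35, and POLD2 of the same enzyme did not pass the test, at -0.07 on the log2 scale (adjusted p = 0.323). PRIM1, POLA2 and POLA1 of the priming complex fell by 0.32, 0.29 and 0.25, and PRIM2, at -0.19, did not pass the test (adjusted p = 0.186). PRIM1, POLA2 and POLA1 lost their calls without at least 1 of the shMETTL14 replicates.

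The clamp and its loader fell in all 6 members in the fit on all 4 inputs, and RFC2 lost its call without either shMETTL14 replicate or without sh-NC replicate 1. PCNA (chr20:5114953-5126626), the sliding clamp, measured 112.7 and 110.6 CPM in sh-NC, against 87.0 CPM in both shMETTL14 inputs, a log2 fold change of -0.35 (SE 0.0414, adjusted p = 5.36e-07). The loader subunits RFC1 to RFC5 fell by 0.27 (RFC1) to 0.46 (RFC3) on the log2 scale. FEN1, the flap endonuclease, and LIG1, the ligase that seals the lagging strand, fell by 0.30 and 0.26.

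None of the 3 single-strand binding subunits and none of the 3 regulators passed the test. The log2 fold changes were -0.07 for RPA1, -0.10 for RPA2 and -0.17 for RPA3, all negative. E2F1 (chr20:33675683-33686404), a transcription factor of many genes named here, measured 47.7 and 50.0 CPM in sh-NC, against 48.5 and 47.2 CPM in shMETTL14. Its arms overlapped, and its log2 fold change was -0.02 (SE 0.0531, adjusted p = 0.823). E2F2 stood at -0.14 and UHRF1, which carries DNA methylation through replication, at -0.03.

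**Figure D3:**
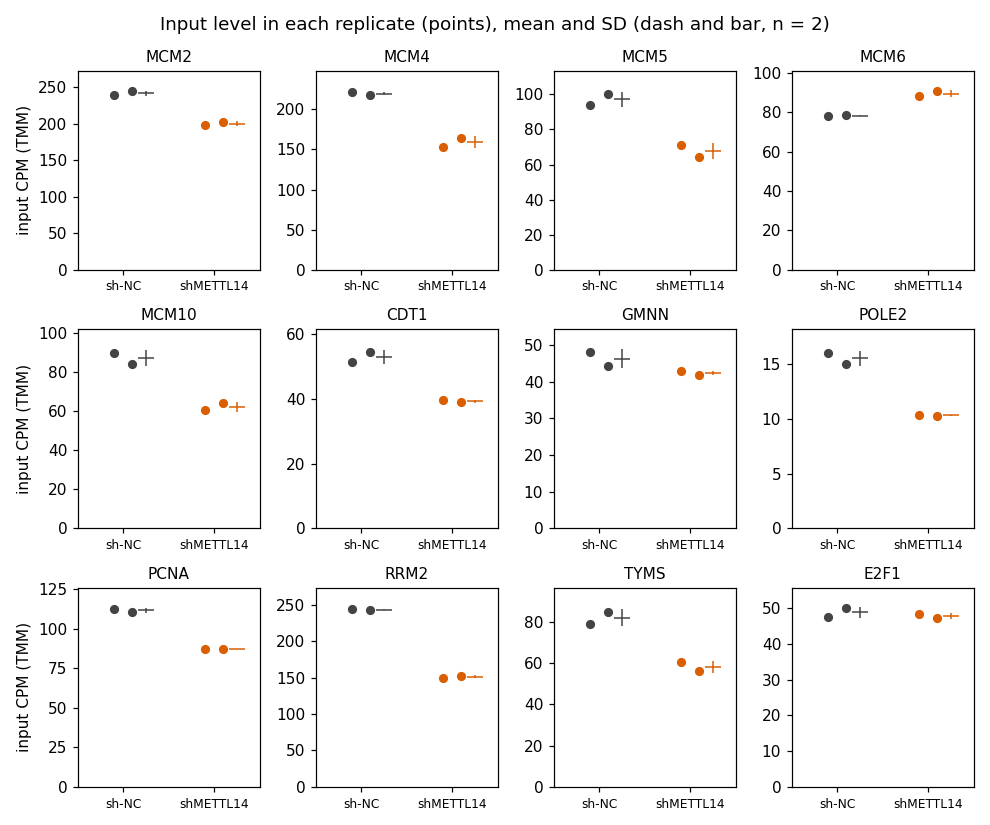
Input level in CPM (y axis from 0) of 12 members, with 1 panel per gene, 1 point per replicate, and the mean and SD (n = 2) as a dash and bar beside the points of each arm. The shMETTL14 points lie below the sh-NC points in every panel except MCM6, where they lie above, and E2F1, where the arms overlap; GMNN did not pass the test.

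Levels were also scaled by exon length, which is the merged length of all annotated exons of a gene and not that of a single transcript. On this scale the members spanned a wide range. In the sh-NC inputs MCM3 (chr6:52264009-52284881) was the highest at 166.6 ± 2.16 CPM per kilobase (SD, n = 2), followed by MCM7 at 90.3 ± 0.703, PCNA at 75.9 ± 1.01 and FEN1 at 66.9 ± 0.292. MCM2, RRM2 and RRM1 came next at 49.4 ± 0.762, 49.2 ± 0.0516 and 47.2 ± 2.17 CPM per kilobase, and these 3 did not differ beyond their spread. At the low end were ORC4 at 3.25 ± 0.045, PRIM2 at 2.64 ± 0.211 and ORC5 at 1.99 ± 0.388 CPM per kilobase. MCM3 itself measured 613.6 and 602.4 CPM in sh-NC, against 540.9 and 503.9 CPM in shMETTL14, with no overlap of the arms. Within the MCM ring, MCM6 and MCM5 had the lowest levels, at 19.0 ± 0.0703 and 13.2 ± 0.56 CPM per kilobase. Before scaling by length, MCM5 lay above MCM6, at a mean of 97.1 against 78.1 CPM in the sh-NC inputs. Their order thus depends on the merged exon lengths, 7338 bases for MCM5 and 4118 bases for MCM6.

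The IP libraries, compared between the arms in the same way, gave 31 members lower and 1 higher, against 12.6% and 10.4% of all genes tested, with a median log2 fold change of -0.23. Of the 31 members lower in input, 29 were also lower in IP, and MCM6 was again the member that was higher. The same overlap was not counted over all genes. The IP libraries come from the same RNA as the inputs, so they are no independent sample of the cells.

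IP over input compares how much of a gene's RNA the m6A antibody recovered with its level in input, relative to the other genes of the same libraries. In sh-NC it was higher than 1 for 15 members and lower for 29 members by the edgeR test, and 5 did not pass it. Among all 22953 genes tested, 29.1% were higher and 29.8% were lower. The median log2 IP over input of the members was -0.32, against -0.01 over all genes tested. These values are for whole genes and do not place m6A within a transcript.

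The highest value was that of FEN1 (chr11:61792637-61797244), at 1.88 and 1.80 in the sh-NC replicates (log2 0.88, SE 0.0397, adjusted p = 4.02e-25). GINS3 stood at 1.64 and 1.78, and ORC6, a small subunit of the origin recognition complex, at 1.65 and 1.68. POLD3 and RFC1 followed, at 1.51 and 1.59 and at 1.36 and 1.51. All these replicate values lay above 1.

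The lowest value was that of POLD2 (chr7:44114681-44124358), at 0.495 and 0.523 (log2 -0.98, SE 0.0541, adjusted p = 1.17e-21). CDT1 stood at 0.577 and 0.468, RPA2 at 0.539 and 0.547, TK1 at 0.596 and 0.515 and MCM5 at 0.599 and 0.524. The polymerase delta subunits POLD3 and POLD2 thus lay near opposite ends of the range of members, in the same libraries.

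By role, all 3 single-strand binding subunits, 7 of 9 polymerase and primase members and 3 of 4 deoxynucleotide enzymes had lower IP than input. FEN1 and LIG1 were both higher in IP. Over all genes tested, 29.8% were lower and 29.1% were higher, and these groups are small. The helicase group held 3 higher members (GINS3, MCM10 and MCM3) and 7 lower ones, among them MCM2 at 0.773 and 0.701 and MCM6 at 0.712 and 0.703. In licensing, GMNN was higher, at 1.22 and 1.33, and its target CDT1 was lower. PCNA, at 0.611 and 0.592, RRM2, at 0.684 and 0.687, TYMS, at 0.661 and 0.579, and E2F1, at 0.716 and 0.590, were all lower.

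In mammalian mRNAs, m6A is known to gather in long internal exons and near stop codons. The longest exon was taken here at any position, so it was not always internal. In FEN1, GINS3 and RRM2, for example, it was the last exon. The median longest exon was 1427 bases for the 15 higher members, 1095 bases for the 29 lower ones, 2633 bases for the 5 not called and 1510 bases over all genes tested. Across the 49 members, Spearman's rho between the longest exon and log2 IP over input was 0.239, and across all 22953 genes it was 0.179. Across the members it was 0.1 for the last exon and 0.259 for the summed exon length. Genes of a library share its depth and composition, so both values are descriptions only.

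**Figure D4:**
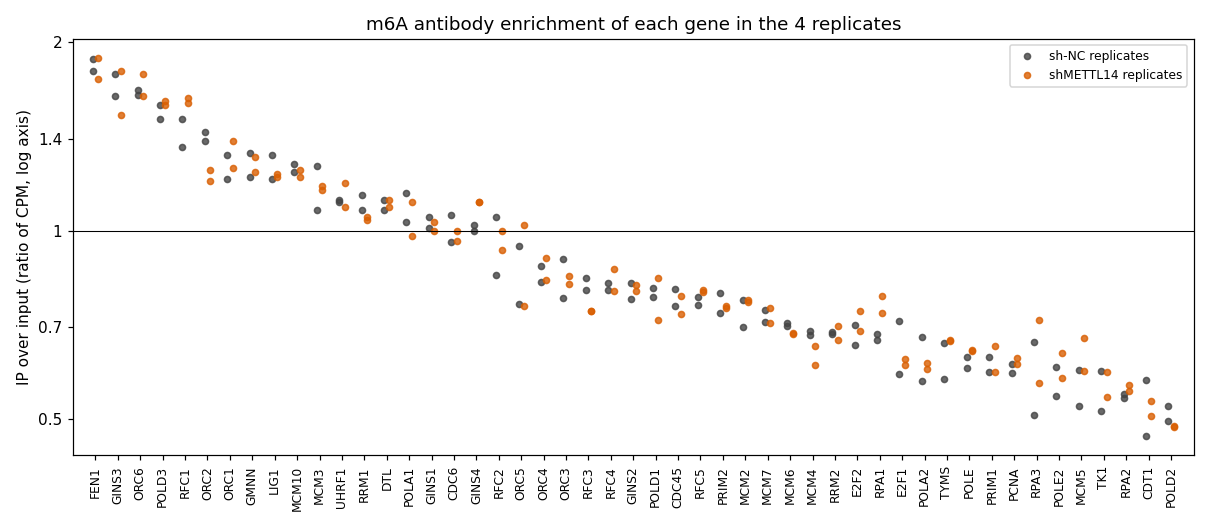
IP over input of each member, as a ratio of CPM on a log axis, with 1 point per replicate of sh-NC and shMETTL14; genes are ordered by their sh-NC value. FEN1 lies highest and POLD2 lowest, and the points of the arms lie close together in most genes.

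In shMETTL14, IP over input was higher than 1 for 14 members and lower for 29, against 28.9% and 29.1% of all genes tested, with a median log2 value of -0.32. The 29 lower members were the same genes as in sh-NC, and 13 higher members were shared. Sharing of calls between the arms was not counted over all genes, so it is not read as a trait of the members. FEN1 again stood high, at 1.75 and 1.89, and POLD2 low, at 0.487 and 0.484.

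The difference of this ratio between sh-NC and shMETTL14 asks whether the antibody recovered less of these RNAs, relative to the other genes, after METTL14 knockdown and beyond the change in their level. The scaling centres the ratio (median log2 change over all genes -0.0014), so an even fall of m6A across transcripts would not be seen. No member passed the test, 0 of 49, in edgeR or in DESeq2. Over all 22953 genes tested, 0% were higher and 0.00436% were lower, which is 1 gene and not a member. At an unadjusted p under 0.05, 3 members were higher and 2 were lower, and over all genes 696 were higher and 760 were lower. The median log2 change of the members was 0.01, with a range from -0.20 to 0.18, and the standard errors ran from 0.0528 to 0.204 with a median of 0.0801. With 2 replicates per arm, log2 changes as large as 0.20 in size did not pass the test.

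The smallest p was that of RFC1 (chr4:39287456-39366375), whose IP over input was 1.36 and 1.51 in sh-NC, against 1.63 and 1.60 in shMETTL14. The arms did not overlap, and the log2 change was 0.18 (SE 0.0612, unadjusted p = 0.00608, adjusted p = 0.609, edgeR). ORC2 measured 1.39 and 1.44 against 1.25 and 1.20, a log2 change of -0.20 (SE 0.0808, adjusted p = 0.682). RPA1 measured 0.683 and 0.669 against 0.737 and 0.785, a log2 change of 0.17 (SE 0.074, adjusted p = 0.719). MCM5 measured 0.599 and 0.524 against 0.595 and 0.674, a log2 change of 0.17 (SE 0.0755, adjusted p = 0.72), and here the arms overlapped.

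RRM2, which fell most in input, had an IP over input of 0.684 and 0.687 in sh-NC, against 0.703 and 0.668 in shMETTL14, a log2 change of -0.0003 (SE 0.0556, adjusted p = 1.0). MCM6, which rose in input, had 0.712 and 0.703 against 0.686 and 0.683, a log2 change of -0.05 (SE 0.0678, adjusted p = 0.957). The values of RRM2 overlapped between the arms, and those of MCM6 lay slightly lower in both shMETTL14 replicates.

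**Figure D5:**
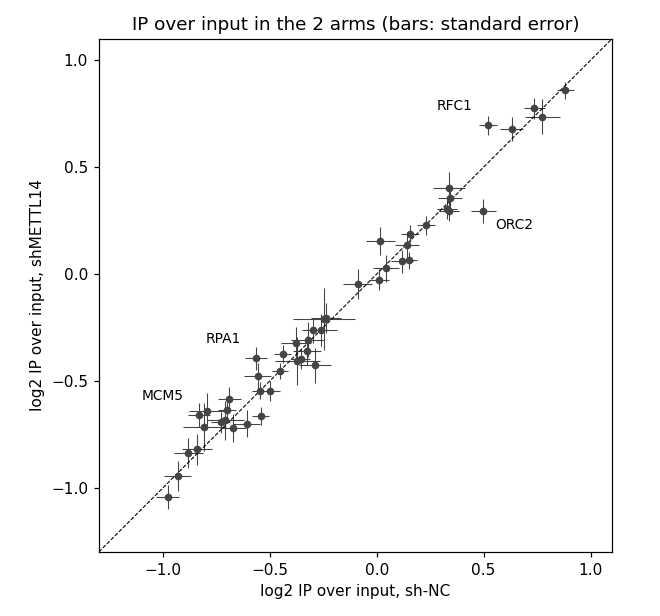
Log2 IP over input of the 49 members in sh-NC (x axis) and shMETTL14 (y axis); bars are standard errors of the edgeR fit and the dashed line marks equal values. The 4 named genes had the smallest unadjusted p for the change, and their adjusted p ran from 0.609 for RFC1 to 0.72 for MCM5.

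Further genes of the same processes were read from lists of their own, in input, where 12.3% of all genes tested were lower and 11.7% were higher. These lists, like the members, were chosen with earlier results of these data known. Of 31 replication accessory and checkpoint genes, 14 were lower (45.2%) and 2 were higher (6.45%). DSCC1, a subunit of an alternative clamp loader, measured 27.1 and 27.9 CPM in sh-NC, against 14.5 and 14.9 CPM in shMETTL14 (log2 fold change -0.89), and TOP2A, a topoisomerase that untangles replicated DNA, fell by 0.71. TOP2B and CLSPN rose by 0.16 on the log2 scale each. Of 33 further nucleotide synthesis genes, 13 were lower (39.4%) and 3 were higher (9.09%). DUT, which removes dUTP and feeds the thymidylate route, fell by 0.55 and DCTD by 0.54. NME1 rose by 0.24 and IMPDH1, of guanine nucleotide synthesis, by 0.21. NME1 has a similar neighbour, NME2, that may share its reads. NME2 did not pass the test (log2 fold change -0.015, adjusted p = 0.829, edgeR).

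Of 16 E2F factors, pocket proteins and S phase cyclins, 8 were lower (50.0%) and 2 were higher (12.5%). The shares over all genes tested were 12.3% and 11.7%. E2F8, a repressor of the E2F family, fell by 0.56, and RBL1, the pocket protein p107, by 0.47. CCNE1, cyclin E1, which acts at the entry into S phase, measured 14.3 and 14.1 CPM in sh-NC, against 23.5 and 27.5 CPM in shMETTL14, a log2 fold change of 0.85 (SE 0.0836, adjusted p = 3.66e-08). The arms did not overlap, and its direction was opposite to that of most members. TFDP2, a binding partner of E2F factors, rose by 0.24. In the change of IP over input, 0 genes of these 3 lists passed the test.

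Other marker lists also shifted in input, not all in the direction of the members. Among all genes tested, 12.3% were lower and 11.7% were higher. Of 5 proliferation markers, 3 were lower: TOP2A, CDK1 and MKI67, the last at a log2 fold change of -0.12. TOP2A is also on the accessory list above. CCNB1 and PLK1 did not pass the test. The 5 together summed to 2602 to 2697 CPM in sh-NC and 2317 to 2332 CPM in shMETTL14. Of 13 adrenergic neuroblastoma markers, 9 were higher and 0 were lower, and their sum was 6756 to 7001 CPM in sh-NC and 7685 to 7738 CPM in shMETTL14. Of 10 mesenchymal markers, 5 were lower and 3 were higher, with sums of 2831 to 2918 CPM and 2445 to 2455 CPM. Each of these sums rests mostly on a single gene. In sh-NC these were MKI67 at 2110 and 2029 CPM, MYCN at 4452 and 4224 CPM and VIM at 1913 and 1980 CPM. In shMETTL14, VIM measured 1573 and 1570 CPM, and MYCN did not pass the test. Of 4 epithelial markers tested, 2 were lower, and the epithelial list summed to 18.6 to 19.9 CPM and 15.2 to 16.3 CPM. The part of these shifts in the lower level of the replication genes was not tested.

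The exons of 18 members share bases with another gene, and whether the counting used strand is not given in the sources used here. TYMS shares 465 bases (18.8% of its exon bases) with ENOSF1 on the opposite strand, and GINS4 shares 1159 bases (21.2%) with an antisense gene. FEN1 shares 166 bases (6.7%) with TMEM258, and GINS3 shares 558 bases (10.9%) with an antisense gene. PRIM1 shares 33 bases with NACA, whose counts were far higher. Reads in these bases cannot be assigned for certain. Of the 31 members with no shared bases, 20 were lower and 1 was higher in input, against 12.3% and 11.7% of all genes tested. Processed copies took few counts: RRM2P3, the most counted of them, held 319 counts over the 8 libraries against 49664 for RRM2.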

How the data were processed

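Gene counts were deposited by the authors as 1 table of raw counts for 8 libraries, made from stranded, UMI-tagged reads of poly(A) RNA fragments. Per the labels the build was GRCh38 and reads were trimmed with Trimmomatic 0.36; aligner, counter and use of strand and UMIs are not given in the sources used here. The counts were tested as deposited with edgeR 4.0.16 in R 4.3.3 (TMM factors, filterByExpr, quasi-likelihood F-test, Benjamini-Hochberg over all genes tested, threshold 0.05): input between arms over the 4 input libraries, and IP over input and its change over all 8, with 4 group means. Levels are CPM with the TMM factors of the 8 libraries, and fold changes come from the fits.

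The members and gene lists were chosen with earlier results of these data known. Values per replicate are given for the called members with the 6 largest rises and the 6 largest falls in input, the highest level per kilobase, the 5 highest and 5 lowest IP over input in sh-NC, the 4 smallest p for the change, and MCM2, PCNA, RRM2, TYMS, CDT1, GMNN and E2F1. RRM1 and the IP over input of MCM6 were added after their values were seen. In each further list the 2 largest called changes in each direction are named.

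Alternatives were DESeq2 1.42.0, other scaling factors and filters, genes without shared exon bases, a replicate block, leaving out each replicate, and the IP libraries. Replicates differed by more than sampling noise in each group (mean chi-square per gene 2.41 to 3.9). The scripts were tested on simulated data. All 49 members matched a RefSeq GRCh38.p14 gene by symbol and position. ADSS2 was found under its older symbol.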

Additional observations from a re-analysis of the deposited data

How the results depend on the processing

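The 31 members lower in input became 30 with DESeq2, 24 with no filter on low counts, 33 in a fit on all 8 libraries and 23 to 33 on leaving out each replicate in turn, fewest without shMETTL14 replicate 2. Over 13 settings of the input comparison, 22 members were lower wherever they were tested. The 1 higher member, MCM6, became 0 without shMETTL14 replicate 2, so its range over the left-out replicates was 0 to 1. With the IP libraries in place of input the members' median log2 was -0.2294. Over all genes tested, the median ran from -0.005 to 0.0171 across the settings of the input comparison. The shares of all genes called are not given per setting in this section. In the fit reported above they were 12.3% lower and 11.7% higher in input. The input log2 fold change of E2F1, -0.02, turned to 0.0112 without sh-NC replicate 2, the upper end of a range from -0.0587 on leaving out each replicate.

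Without genes that share exon bases, 31 members were tested, so counts fell: 20 lower in input, 8 higher and 18 lower in IP over input in each arm, and a median change of IP over input of -0.0047. With all genes kept, the median change ran from -0.0077 to 0.0203 on leaving out each replicate, and no member was called for the change in any setting. With library size only, IP over input of all genes shifted to a median of -0.142 in sh-NC and -0.1284 in shMETTL14, and 11 members were higher and 32 lower in each arm.

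Same-numbered libraries did not deviate together, also not the IP and input of a replicate (correlations of their deviations -0.0146 to 0.000891). With the replicate block, 33 members were lower in input (GINS3 and RRM1 added), IP over input was higher for 14 members in sh-NC and 12 in shMETTL14, and the change stayed at 0. With 2 replicates per arm and no site-level counts, a change of m6A in part of a transcript could not be read here.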
